A study of Mus musculus with 7 samples.

Results

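The comparison set OT-I CD8 T cells that had divided in RIP-OVAhi hosts, a model of deletional tolerance, against undivided naive OT-I cells, on 4 of the 7 arrays of the series. OT-I cells carry a transgenic receptor for a peptide of ovalbumin. The members were the deposited log2 values of the 2 RIP-OVAhi arrays and the 2 naive arrays over every probe set annotated to 1 gene symbol, which are 34958 of 45101 probe sets. They stand for 18194 genes, of which 8203 reached log2 5 on at least 2 arrays and were tested. All hosts and donors were of the C57BL/6 strain, and every group received CD44lo Ly5.1 OT-I cells labelled with CFSE, a dye diluted at each division. RIP-OVAhi hosts express ovalbumin from the rat insulin promoter, and cells past at least 2 divisions were taken from their sacral and pancreatic lymph nodes after 60 h, pooled from 20 mice per array. Naive cells were undivided cells taken after 60 h from the spleens of B6 hosts without the antigen, pooled from 10 mice per array. Lymph node against spleen, divided against undivided, and antigen against none therefore coincide with the groups and cannot be told apart. OCS/LPS hosts, primed with ovalbumin-coated splenocytes and lipopolysaccharide, gave divided spleen cells at 60 h (2 arrays), and Rag hosts gave divided spleen cells at 5 days (1 array). Both are used here only for reference levels, for the estimate of the spread and for the direct test of RIP-OVAhi against OCS/LPS.

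A naive CD8 T cell is a small resting cell that depends on interleukin-7 and circulates between spleen and lymph nodes. When its receptor binds peptide on a presenting cell it enters the cell cycle, and signals that come with the peptide help set whether it becomes a killer cell or is lost. In deletional tolerance to a tissue antigen the cells divide and then disappear, a loss in which the pro-apoptotic protein Bim is known to take part. The label of the cells was checked against markers. On the naive arrays Cd8a read log2 12.77 and 12.59, and on the RIP-OVAhi arrays 13.23 and 13.19. Cd3e read 10.18 and 10.28 against 10.40 and 10.38, while Cd4 (3.30 and 3.47 against 3.24 and 3.29) and Foxp3 lay near background, the term used here for values under log2 5.

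The 7 arrays had medians of 2.97 to 3.08, and 33.7% to 34.5% of probe sets were at log2 5 or more. Gapdh control features near the 3′ end exceeded those near the 5′ end by 2.59 and 2.43 on the naive arrays and by 2.08 and 2.03 on the RIP-OVAhi arrays. This sign of RNA quality moved with the group, and its part in the results was not tested. The naive arrays stood further apart than other replicates: 347 of 8203 tested genes differed more than 2-fold between them, against 28 between the RIP-OVAhi arrays and 31 between the OCS/LPS arrays. In 225 of the 347 the second naive array was the higher. Sex-linked genes also split every replicated group by replicate number. Xist read 2.74 and 12.73 on the naive arrays and 2.67 and 13.01 on the RIP-OVAhi arrays. The Y-linked gene Kdm5d read 8.79 and 2.64 against 8.82 and 2.57. The labels do not give the sex of the cells. Several transcripts of other cell types were on the naive spleen arrays and not on the RIP-OVAhi arrays. The myeloid gene Lyz1 read 7.94 and 8.67 on the naive arrays and 2.94 and 3.36 on the RIP-OVAhi arrays. The class II gene H2-Aa read 6.50 and 6.69 against 1.77 and 2.74, and the immunoglobulin joining chain gene Jchain 7.07 and 6.93 against 1.65 and 2.28. Another class II gene, H2-DMa, was measured in both groups, at 7.92 and 8.56 against 8.53 and 8.49, and was not called. Over 15 named myeloid genes, of which 4 were tested, the summed linear level was 414 to 650 on the naive arrays and 129 to 145 on the RIP-OVAhi arrays. For 6 class II genes it was 449 to 588 and 420 to 422, and for 8 plasma cell genes 4852 to 5075 and 3747 to 3756. The highest members of these class II and plasma cell lists were H2-DMa and Ighm, which were not called. Ighm read 12.21 and 12.08 against 11.86 and 11.85. The sums of these lists mostly follow those genes and hide the falls of H2-Aa and Jchain. Of the B cell genes, Cd79a was near background on all 4 arrays, but Cd79b was measured on all 4, at 7.10 and 8.27 on the naive arrays and 7.89 and 8.43 on the RIP-OVAhi arrays. Ms4a1 read 4.73 and 5.72 against 3.74 and 3.98, and neither was called. Summed over 9 B cell genes the level was 210 to 404 and 372 to 522. Csf1r of macrophages was near background on all 4 arrays, as were all 8 acinar and all 7 islet genes of the pancreas. Fewer cells of a type and less RNA per cell cannot be told apart in such bulk samples, and the part of host cells in the results was not tested.

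**Figure D1:**
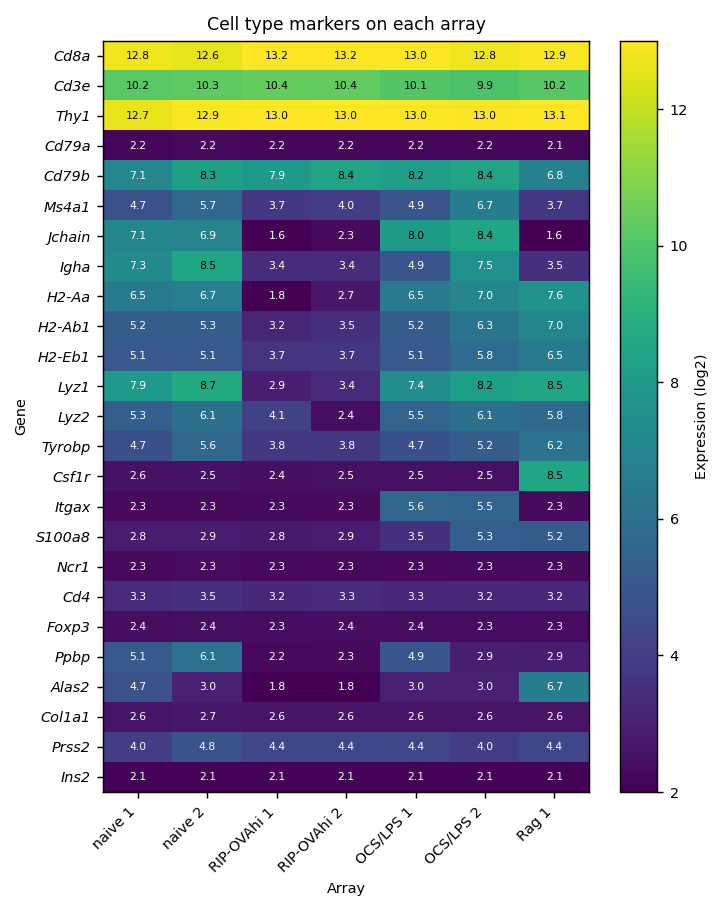
Log2 expression of 25 cell type markers (rows) on each of the 7 arrays (columns), coloured from dark (low) to yellow (high) with the value printed in each cell. Cd8a, Cd3e and Thy1 are high on every array, Lyz1 and H2-Aa are high on the naive arrays and under log2 5 on both RIP-OVAhi arrays, and Cd79a, Ncr1, Cd4 and Foxp3 stay under log2 5 throughout.

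Of the 8203 tested genes, 29.6% were called at an adjusted p under 0.05 (limma, Benjamini-Hochberg over all tested genes, n = 2 per group). RIP-OVAhi was higher for 1481 genes (18.1%) and lower for 948 (11.6%), so 61.0% of the calls were higher. The change was at least 2-fold for 707 higher genes (8.62%) and 390 lower genes (4.75%). The larger the change, the more one-sided the calls were: 281 genes were higher and 70 lower by at least 2 on the log2 scale, and 51 higher and 3 lower by at least 5. Among the calls, 226 higher genes were near background on both naive arrays, and 95 lower genes were near background on both RIP-OVAhi arrays. A fold against such a value depends on the background correction and is not exact. The median difference over all tested genes was 0.06, with 5% of genes below -1.01 and 5% above 1.48. Centring each array on its median moved all differences by -0.12 and gave 1192 higher and 1296 lower genes (47.9% higher), so differences of that size have no settled direction. The counts moved with single arrays: they dropped without either RIP-OVAhi array or either OCS/LPS array and rose without either naive array. On the 4 compared arrays alone 1012 genes were higher and 589 lower. Each fit without 1 array also changes the estimate of the spread, to which the naive arrays, standing further apart, contribute. The part of the array and of the spread in a lost call, here and below, was not tested. The arrays of the groups did not overlap for 66% of all tested genes.

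**Figure D2:**
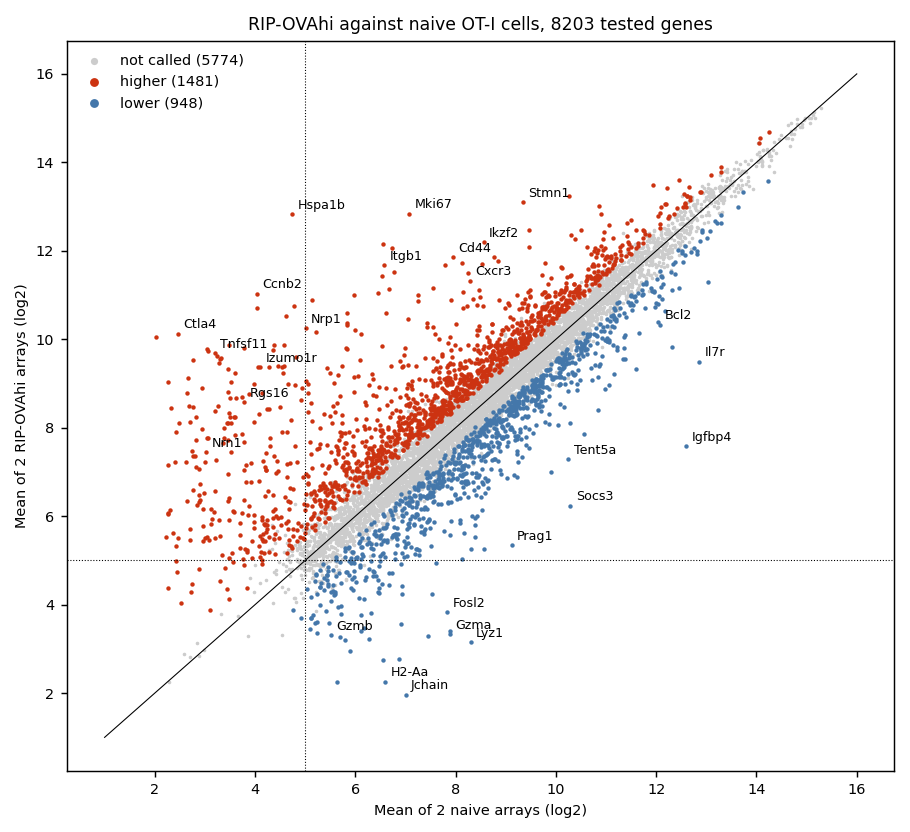
Each point is 1 of 8203 tested genes, with the mean of the 2 naive arrays (log2) on the horizontal axis and the mean of the 2 RIP-OVAhi arrays (log2) on the vertical axis. Red points are the 1481 genes called higher and blue points the 948 called lower, the solid line marks equal levels and the dotted lines mark log2 5; 281 genes lie above the line of equal levels by at least 2 and 70 lie below it by as much.

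Division genes rose together. Of 51 tested genes of mitotic kinases, spindle and kinetochore, 49 rose and 0 fell, with a median difference of 4.84 against 0.06 over all genes. Over all tested genes 18.1% were called higher and 11.6% lower. Of 33 genes of replication licensing and the fork, 31 rose and 0 fell (median 1.68), and of 26 genes of DNA repair and chromatin assembly, 25 rose and 0 fell (median 2.76). The sort on divided and undivided cells makes this difference part of the design. Ccnb2, the cyclin B2 gene of mitotic entry, read 3.76 and 4.32 on the naive arrays and 10.96 and 11.10 on the RIP-OVAhi arrays. Cenpf, a kinetochore gene, read 2.68 and 2.83 against 9.31 and 9.77. Aspm, a spindle pole gene, read 2.04 and 2.49 against 8.89 and 9.17, and the checkpoint kinase gene Bub1 3.17 and 2.90 against 9.80 and 9.78. All 4 went from near background on both naive arrays to clearly measured levels on both RIP-OVAhi arrays, and their differences were 6.99 (SE 0.20), 6.78 (SE 0.23), 6.77 (SE 0.23) and 6.75 (SE 0.21), with adjusted p from 2.62e-05 to 3.95e-05. In all, 30 of the 51 mitotic genes were near background on both naive arrays. The exceptions were Smc4, a condensin gene already at 12.89 and 12.14 on the naive arrays (difference 0.72, SE 0.29, adjusted p = 0.116), and Pttg1, the securin gene (11.41 and 11.57 against 11.52 and 11.46). A further Smc4 probe set was called higher by 1.14. The second tested Bub1 probe set rose by 1.71 and the second tested Aspm probe set by 4.84, so the size of a rise depends on the probe set. With the first or second RIP-OVAhi array left out, 47 or 46 mitotic and 24 or 22 repair genes were called, but 23 or 20 licensing genes.

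The promoters of mitotic genes are shown because genes of this list are known to share CCAAT boxes, bound by NF-Y, and the sequence TTTGAA, the cell cycle homology region. The windows are from RefSeq (GRCm38.p6), from 250 bases before to 50 bases after the annotated start, written 5′ to 3′ along the gene, and capitals mark CCAAT or its complement ATTGG, and TTTGAA or its complement TTCAAA. They lie at chr9:70421505-70421804 on the minus strand (Ccnb2), chr1:189688037-189688336 on the minus strand (Cenpf), chr1:139454523-139454822 on the plus strand (Aspm) and chr2:127831810-127832109 on the minus strand (Bub1).
Ccnb2: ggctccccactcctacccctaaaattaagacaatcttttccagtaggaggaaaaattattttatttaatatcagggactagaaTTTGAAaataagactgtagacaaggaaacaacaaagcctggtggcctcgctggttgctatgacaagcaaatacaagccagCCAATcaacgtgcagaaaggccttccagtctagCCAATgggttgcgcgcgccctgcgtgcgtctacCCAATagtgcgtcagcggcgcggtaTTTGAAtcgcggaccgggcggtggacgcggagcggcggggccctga
Cenpf: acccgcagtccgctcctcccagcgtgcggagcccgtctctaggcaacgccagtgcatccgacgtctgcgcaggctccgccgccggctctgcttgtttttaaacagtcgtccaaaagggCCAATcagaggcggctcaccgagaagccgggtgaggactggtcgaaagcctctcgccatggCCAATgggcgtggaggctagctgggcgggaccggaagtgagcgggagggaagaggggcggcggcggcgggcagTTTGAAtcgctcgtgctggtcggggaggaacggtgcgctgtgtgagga
Aspm: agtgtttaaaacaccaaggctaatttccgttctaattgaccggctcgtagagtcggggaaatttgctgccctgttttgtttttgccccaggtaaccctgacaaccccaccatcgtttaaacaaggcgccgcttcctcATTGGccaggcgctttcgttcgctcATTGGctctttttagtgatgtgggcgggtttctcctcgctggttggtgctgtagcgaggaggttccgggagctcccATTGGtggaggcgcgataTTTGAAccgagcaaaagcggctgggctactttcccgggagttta
Bub1: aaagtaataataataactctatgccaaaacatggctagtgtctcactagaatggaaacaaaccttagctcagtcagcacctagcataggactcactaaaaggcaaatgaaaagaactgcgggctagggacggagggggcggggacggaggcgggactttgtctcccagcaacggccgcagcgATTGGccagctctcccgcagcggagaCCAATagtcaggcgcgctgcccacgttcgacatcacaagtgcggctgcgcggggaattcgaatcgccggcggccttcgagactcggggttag
Ccnb2 had 3 CCAAT and 2 TTTGAA matches, Cenpf 2 and 1, Aspm 3 and 1, and Bub1 2 and 0. Of the 51 mitotic genes, 44 had a window; 77.3% of these held CCAAT and 72.7% TTTGAA on either strand. Of all 27025 genes with a window 41.1% and 20.2% did, and of the 6768 tested genes with a window 43.7% and 14.4%. Among genes called higher at least 2-fold, 556 had a window, and 52.0% held CCAAT and 26.1% TTTGAA. A match describes the letters and is not a measured binding site.

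The start of replication showed the same pattern with smaller steps. Mcm10, which loads the replicative helicase's partners at origins, read 2.29 and 2.69 on the naive arrays against 8.02 and 8.21 on the RIP-OVAhi arrays. Cdc6, an origin licensing factor, read 4.14 and 5.01 against 9.81 and 9.95, and Cdc45 2.72 and 2.88 against 7.14 and 7.57. The groups did not overlap for any of the 3, as for 66% of all tested genes, and the differences were 5.62 (SE 0.17), 5.30 (SE 0.28) and 4.55 (SE 0.18). A second Cdc45 probe set differed by 0.04 and was not called. Cdt1, the licensing partner of Cdc6, was at 10.39 and 10.59 on the naive arrays and 10.18 and 10.35 on the RIP-OVAhi arrays, and was not called (-0.22, SE 0.14, adjusted p = 0.274). The windows of Mcm10 (chr2:5012742-5013041, minus strand) and Cdc6 (chr11:98907901-98908200, plus strand) are shown because licensing genes are known targets of E2F factors. Capitals mark a match to the E2F sequences, which are TTTCGCG and also TTTGGCG and also TTTCCCG, or to their complements.
Mcm10: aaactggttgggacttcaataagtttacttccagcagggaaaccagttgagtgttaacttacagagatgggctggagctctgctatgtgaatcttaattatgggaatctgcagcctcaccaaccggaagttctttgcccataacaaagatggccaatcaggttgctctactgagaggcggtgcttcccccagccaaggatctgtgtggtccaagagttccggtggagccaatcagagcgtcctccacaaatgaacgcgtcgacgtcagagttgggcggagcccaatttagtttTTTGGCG
Cdc6: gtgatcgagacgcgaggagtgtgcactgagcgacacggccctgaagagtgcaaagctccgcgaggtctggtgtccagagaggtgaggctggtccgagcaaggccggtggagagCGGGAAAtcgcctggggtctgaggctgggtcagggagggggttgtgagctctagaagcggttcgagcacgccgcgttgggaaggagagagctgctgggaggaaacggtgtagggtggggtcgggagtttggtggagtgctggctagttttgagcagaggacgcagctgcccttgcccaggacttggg
Each held 1 match, and the Cdc45 window held none. Of the 33 licensing genes 26 had a window, and 61.5% of these held an E2F match, against 18.2% of the mitotic list, 6.38% of all genes with a window and 12.4% of tested genes with one. TTTGAA was in 23.1% of the licensing windows.

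Repair genes nearly all rose, while nucleotide and cyclin genes gave more rises than falls and several uncalled genes. Rad54l, a recombination gene, rose by 5.49 (SE 0.17), Uhrf1, which keeps DNA methylation through replication, by 4.59 (SE 0.18), and the checkpoint kinase gene Chek1 by 4.03 (SE 0.24). The damage kinase gene Atr was not called (9.15 and 8.93 against 8.84 and 8.79), although another of its probe sets was called lower by 1.05. Of 26 genes of nucleotide and one-carbon synthesis, 10 rose and 2 fell (median 0.19), or 46.2% called against 29.6% of all tested genes. Those that rose included deoxynucleotide genes: Tk1, thymidine kinase, read 2.69 and 3.77 against 9.61 and 9.63, and the ribonucleotide reductase genes Rrm2 and Rrm1 rose by 5.32 (SE 0.14) and 2.94 (SE 0.14). Paics, of purine synthesis, was not called on its main probe set. Of 20 G1 cyclins, kinases and inhibitors, 13 rose and 2 fell (median 1.16, 75% called). Ccna2 read 3.90 and 5.34 against 10.35 and 10.70, Ccne2 4.53 and 4.63 against 9.34 and 9.46, and E2f2 5.35 and 5.52 against 9.31 and 9.38. The 2 falls, named after their values were seen, were Ccnd2, the cyclin D2 gene (-0.79, SE 0.15, adjusted p = 0.0119), and Cdk6, its kinase partner (-0.73, SE 0.18, adjusted p = 0.0288). Cdk4 was not called. On leaving out either RIP-OVAhi array, both lists had fewer rises and no fall, so the calls of Ccnd2 and Cdk6 were lost in those fits.

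**Figure D3:**
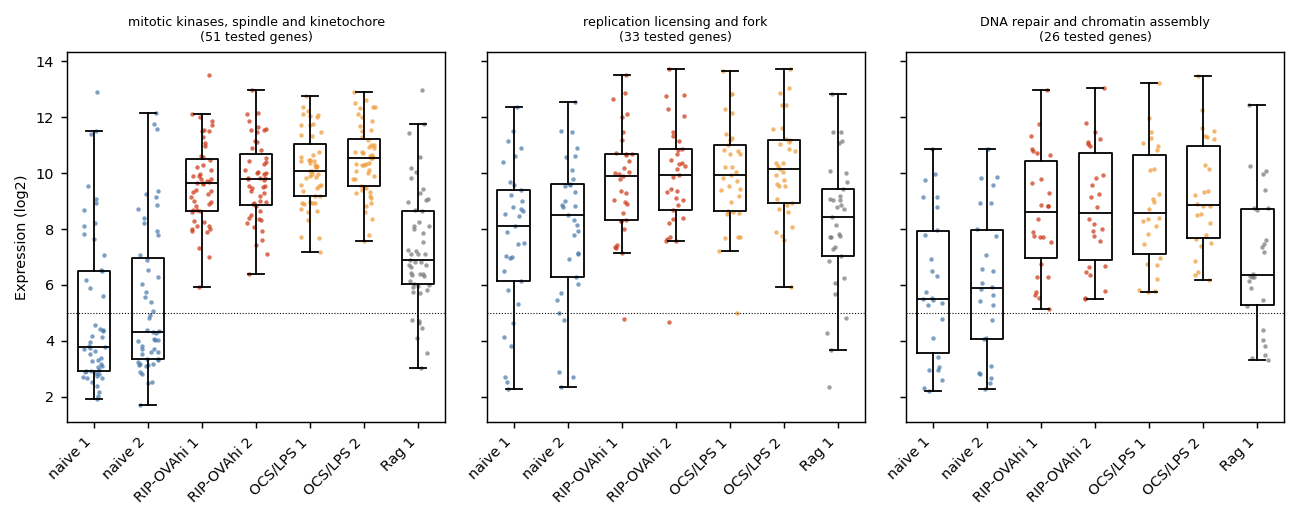
Log2 expression of the tested genes of 3 division lists on each of the 7 arrays; points are genes, boxes span the quartiles with the median as a line, whiskers reach the last value within 1.5 times the box height, and the dotted line marks log2 5. The mitotic list lies mostly under log2 5 on both naive arrays and between about log2 6 and 14 on both RIP-OVAhi arrays, close to the OCS/LPS arrays and above the Rag array.

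Division genes also differed between replicates. The second naive array was above the first for 44 of 51 mitotic genes, with a median gap of 0.40, and for 29 of 33 licensing genes, with a median gap of 0.22. Over all 8203 tested genes it was above for 4145, with a median gap of 0.01. The second RIP-OVAhi array was likewise above the first for 39 of 51 mitotic and 27 of 33 licensing genes, with median gaps of 0.14 and 0.16, and for 4366 of all tested genes. On the OCS/LPS arrays the mean level of the mitotic list was 10.14 and 10.46. For 11 mitotic genes the second naive array was more than 2-fold above the first, among them Nusap1 at 3.27 and 4.82. Cep55, an abscission gene, read 4.31 and 5.98, and Pclaf, a PCNA partner, 5.79 and 7.29. The gaps between the groups were several times larger: Cep55 read 10.85 and 10.93 and Pclaf 12.03 and 12.30 on the RIP-OVAhi arrays. The proliferation marker Mki67 read 6.71 and 7.44 against 12.75 and 12.93, a difference of 5.77 (SE 0.26, adjusted p = 8.07e-05), the largest rise among genes measured above log2 5 in both groups. Without the second naive array 49 mitotic genes were called higher, and without the first 50.

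Receptor signalling genes changed unevenly. The receptor complex and its proximal kinases were mostly not called: of 24 genes 2 rose and 3 fell (median 0.13), which is 20.8% against 29.6% over all genes. The 2 rises were Cd8a and the adaptor gene Lcp2, and the falls were Malt1, Txk and Tec. Of the 5, Tec alone kept its call without the first RIP-OVAhi array, and none kept it without the second. Ptprc (CD45) and Cd3e were not called. The response factors downstream went both ways, 7 higher and 3 lower of 28 (median 0.27), or 35.7% called against 29.6% of all tested genes. Nr4a2, an orphan nuclear receptor gene induced by receptor signals, read 4.31 and 4.30 on the naive arrays and 7.55 and 7.98 on the RIP-OVAhi arrays. Its relative Nr4a3 read 6.82 and 7.28 against 9.62 and 9.23, and Nr4a1 7.63 and 7.47 against 9.54 and 9.03. All 3 lay above both naive values on both arrays, by 3.46 (SE 0.17), 2.38 (SE 0.21) and 1.74 (SE 0.19). The groups did not overlap for 66% of all tested genes. Egr2, which limits T cell activation, read 9.15 and 9.15 against 10.66 and 10.28 (1.32, SE 0.16, adjusted p = 0.00261). On the OCS/LPS arrays Nr4a2 read 4.94 and 4.82, Nr4a1 7.68 and 7.68 and Egr2 9.08 and 9.09, and the direct test called all 3 higher in RIP-OVAhi, by 2.89, 1.61 and 1.39, where 1.61% of all tested genes were called higher and 1.3% lower. These direct tests rest on few arrays: the 132 higher and 107 lower calls dropped to between 16 and 24 with any 1 RIP-OVAhi or OCS/LPS array left out. Of the genes named here with a direct test, Nr4a2, Rgs16, Izumo1r, Nrn1 and Gzma kept their calls under every alternative run. The direct calls of Nr4a1, Egr2, Pdcd1, Cd200, Fosl2, Tnfsf11, Gzmb, Oasl2 and Abca1 were each lost on leaving out at least 1 of these 4 arrays.

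Other members of the response list moved down. Fosl2, an AP-1 subunit gene, read 7.80 and 7.86 on the naive arrays and 4.37 and 3.30 on the RIP-OVAhi arrays, where it was near background (adjusted p = 0.000646). It was lower than on the OCS/LPS arrays too, where it read 6.14 and 6.15. Jun, another subunit, read 8.02 and 6.76 against 9.05 and 10.10, and its rise of 2.19 (SE 0.49, adjusted p = 0.0224) was lost without either RIP-OVAhi array, without either OCS/LPS array and without the second naive array or with the mean of its probe sets. The early activation marker Cd69 fell by 1.27 (SE 0.15), with both RIP-OVAhi arrays (9.82 and 9.90) below both naive arrays. Such a lack of overlap was seen for 66% of all tested genes. The NF-kB inhibitor gene Nfkbia was not called.

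Inhibitory receptors gave some of the widest gaps between the groups. Of 16 named inhibitory receptors 11 were tested, and 7 rose and 2 fell (median 0.80), or 81.8% called against 29.6% of all tested genes. Of the 11, 6 were near background on both naive arrays. They passed the filter only through other arrays, where they were higher, so that share is partly set by the filter. Ctla4, which competes for the ligands of CD28, read 2.64 and 2.29 on the naive arrays against 10.33 and 9.94 on the RIP-OVAhi arrays. Pdcd1, the PD-1 gene, read 4.08 and 4.40 against 8.49 and 8.38, Cd200 3.802 and 4.493 against 8.80 and 8.76, and Lag3 3.03 and 2.67 against 6.55 and 5.96. These 4 genes were near background on both naive arrays and measured on both RIP-OVAhi arrays. Ctla4 read 10.22 and 9.95 on the OCS/LPS arrays, with a difference of 0.05 (SE 0.20) that was not called. Pdcd1 and Cd200 were lower there (7.57 and 7.47, and 6.58 and 6.93), and the direct test called them higher in RIP-OVAhi by 0.91 and 2.02. The falls were Vsir, the VISTA gene, at 10.70 and 10.13 against 8.98 and 8.99, and Lair1, near background in both groups; both were named after their values were seen, and without either RIP-OVAhi array no fall was called. Without the first or second RIP-OVAhi array 6 or 5 rises remained.

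Of 36 brakes on antigen receptor, cytokine and G protein signalling, 13 rose and 4 fell (median 0.44). That is 47.2% called, against 29.6% of all tested genes. Rgs16, which turns off G protein signals, read 3.46 and 4.09 on the naive arrays and 8.62 and 8.53 on the RIP-OVAhi arrays. It stayed near background on the OCS/LPS arrays (3.64 and 3.43) and the Rag array (3.33), and the direct test put RIP-OVAhi above OCS/LPS by 5.04 (SE 0.22, adjusted p = 0.000371). Dusp4, a phosphatase of MAP kinases, read 3.68 and 3.53 against 8.29 and 8.21, and Rgs1 5.16 and 6.13 against 8.99 and 9.37. Socs3, an inhibitor of cytokine signalling, went the other way, at 10.42 and 10.15 on the naive arrays and 5.56 and 6.92 on the RIP-OVAhi arrays (-4.05, SE 0.42, adjusted p = 0.00158). Cblb and Dgkz, a ubiquitin ligase and a diacylglycerol kinase gene linked to anergy and named after their values were seen, rose by 1.08 (SE 0.13) and 0.76 (SE 0.12), while Dgka was not called. The list had 9 or 6 rises and 1 or 1 fall without the first or second RIP-OVAhi array.

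Costimulatory receptors and ligands had 9 rises and 1 fall among 19 tested genes (median 0.44), or 52.6% called against 29.6% overall. Tnfsf11, the RANK ligand gene, read 3.26 and 3.13 on the naive arrays and 9.78 and 9.60 on the RIP-OVAhi arrays. The OCS/LPS values of 5.16 and 6.19 lay between the groups, 4.01 below RIP-OVAhi (SE 0.32, adjusted p = 0.00413). Cd86, better known as a ligand on presenting cells, read 4.05 and 3.93 against 8.17 and 8.10. Both of its tested probe sets were called, at 4.14 and 3.48. Tnfrsf9 (4-1BB) rose by 2.03 (SE 0.24) and Slamf7 by 2.90 (SE 0.26), whereas Cd2 was not called. The fall, named after its value was seen, was Cd274, the PD-L1 gene (7.86 and 7.60 against 7.16 and 6.74), which was not called without the second RIP-OVAhi array or on the 4 compared arrays alone; 7 rises remained without the first or without the second RIP-OVAhi array.

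**Figure D4:**
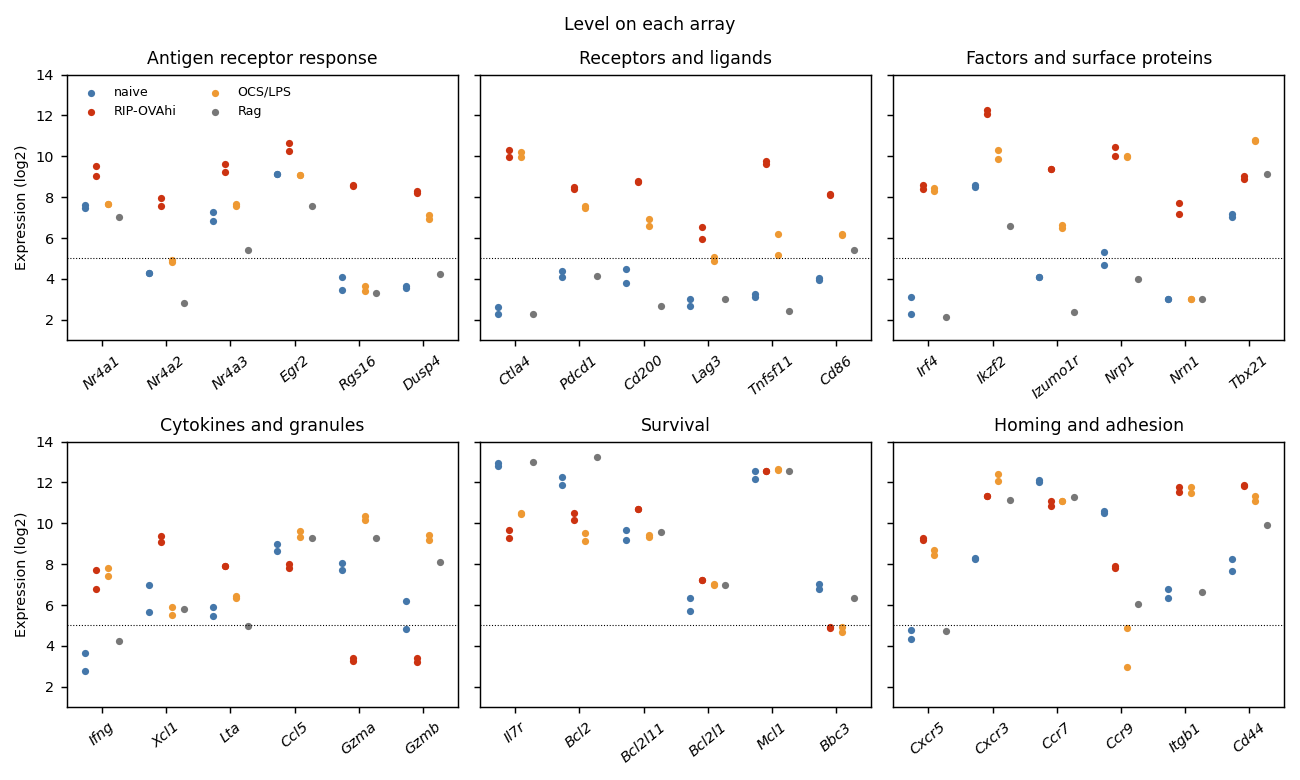
Log2 expression of 36 named genes on each array, in 6 panels by role; each point is 1 array (blue naive, red RIP-OVAhi, orange OCS/LPS, grey Rag) and the dotted line marks log2 5. Nr4a2, Rgs16, Tnfsf11, Izumo1r, Nrn1 and Xcl1 are highest on both RIP-OVAhi arrays, Gzma and Gzmb are lowest there, and Ctla4, Irf4, Nrp1 and Itgb1 lie close together on the RIP-OVAhi and OCS/LPS arrays.

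Transcription factors and surface proteins of effector and tolerant cells had 13 rises and 2 falls among 22 tested genes (median 0.90). That is 68.2% called, against 29.6% of all tested genes. Irf4, a factor that scales with receptor signal strength, read 3.09 and 2.28 on the naive arrays against 8.57 and 8.41 on the RIP-OVAhi arrays. Izumo1r, the folate receptor 4 gene, read 4.10 and 4.11 against 9.38 and 9.36, and Nrn1, the neuritin gene, 3.02 and 3.02 against 7.73 and 7.16. Nrp1, the neuropilin-1 gene, read 4.69 and 5.33 against 10.48 and 10.02, and all 4 of its tested probe sets were called, from 2.27 to 5.24. The groups were far apart for each. Nrn1 was at 3.02 and 3.01 on the OCS/LPS arrays and near background on the Rag array too. Against OCS/LPS, Izumo1r was higher by 2.80 and Nrn1 by 4.43, while Irf4 (0.10, SE 0.27) and Nrp1 (0.26, SE 0.25) were not called. Ikzf2, the Helios gene, was high already in naive cells (8.59 and 8.52) and rose to 12.09 and 12.28. The falls, named after their values were seen, were Id2 (11.93 and 12.15 against 10.43 and 10.37) and Irf1 (-0.58, SE 0.15), of which 1 was called without either RIP-OVAhi array. Stat4 was not called, and 10 or 11 rises remained without the first or second RIP-OVAhi array.

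Naive and quiescence factors were divided: 6 rose and 8 fell of 29 (median -0.16), or 48.3% called against 29.6% of all tested genes. Klf3 read 12.30 and 12.04 on the naive arrays and 10.55 and 10.71 on the RIP-OVAhi arrays, a fall of 1.54 (SE 0.14, adjusted p = 0.00112). Of its 6 tested probe sets 5 were called lower and 0 higher. Klf10 rose by 1.85 (SE 0.14). Mxd4, a partner of Max, read 8.35 and 9.38 against 10.82 and 10.95, and Sox4 6.81 and 7.29 against 8.62 and 8.46; both calls were lost without either RIP-OVAhi array (highest adjusted p 0.0761 and 0.102). The list's falls numbered 1 or 3 without the first or second RIP-OVAhi array, 12 without the second naive array and 12 after centring. Its rises numbered 2 or 2 without a RIP-OVAhi array and 10 without the first naive array, so its counts are not settled by these arrays.

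Genes outside the lists made up most of the largest falls among genes measured in both groups. Igfbp4, which binds insulin-like growth factors, read 12.60 and 12.60 on the naive arrays and 7.85 and 7.31 on the RIP-OVAhi arrays. This was the largest fall in that set (-5.02, SE 0.26, adjusted p = 0.00012), and all 5 tested probe sets of the gene were called lower, by 2.86 to 6.67. Prag1, a pseudokinase gene, read 9.04 and 9.20 against 5.16 and 5.54, and Tsc22d1 8.42 and 8.72 against 5.01 and 5.48. Tent5a, a poly(A) polymerase gene, fell by 2.97 (SE 0.13), Nr1d2, a clock repressor, by 2.91 (SE 0.23), Slc49a4 by 3.04 (SE 0.23), Macrod1 by 3.11 (SE 0.43) and Ampd1, an AMP deaminase gene, by 2.57 (SE 0.25). On the Rag array Igfbp4 (12.16), Prag1 (8.84), Tsc22d1 (8.41) and Nr1d2 (10.00) were closer to the naive than to the RIP-OVAhi values; this is 1 array from other hosts at another time, and the difference was not tested. Of the genes that ended near background, Slc16a5, a transporter, went from 7.502 and 7.552 to 4.23 and 4.25, and Ppargc1b, a coactivator of mitochondrial genes, from 6.74 and 7.11 to 4.59 and 4.24.

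Cytokine receptors were divided, with 6 rises and 5 falls among 20 genes (median -0.07), or 55% called against 29.6% of all tested genes. Il7r, the receptor for the survival cytokine of naive cells, read 12.94 and 12.78 on the naive arrays and 9.69 and 9.30 on the RIP-OVAhi arrays. Its level on the OCS/LPS arrays was 10.52 and 10.44, and on the Rag array 13.01. Both Il7r probe sets fell, by 3.36 and 4.42. Il2rb, shared by the interleukin-2 and interleukin-15 receptors, read 6.64 and 7.23 against 9.22 and 9.51, and Il10ra 5.38 and 5.22 against 7.56 and 7.69. Il2ra was near background on all arrays, and Tgfbr2 was not called. Il18r1 read 9.05 and 7.73 against 6.16 and 4.90, a call (-2.86, SE 0.54, adjusted p = 0.0125) that was lost without the second RIP-OVAhi array (adjusted p = 0.0845). The list had 2 or 2 rises and 3 or 1 falls without the first or second RIP-OVAhi array.

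Effector products were mixed. Of 19 cytotoxic granule and serpin genes, 6 rose and 4 fell (median 0.32), or 52.6% called against 29.6% of all tested genes. Gzma, a granule protease gene, read 7.70 and 8.06 on the naive arrays and 3.25 and 3.41 on the RIP-OVAhi arrays, against 10.17 and 10.35 on the OCS/LPS arrays. Gzmb read 4.81 and 6.20, then 3.41 and 3.21, against 9.18 and 9.41. Both genes were lowest on the RIP-OVAhi arrays; the fall of Gzmb from naive (-2.20, SE 0.43, adjusted p = 0.0138) was lost without either RIP-OVAhi array (highest adjusted p = 0.109), and the direct test put it 5.99 below OCS/LPS (SE 0.43). Stx11, of granule fusion, rose by 2.93 (SE 0.15) and Serpinb6b by 2.58 (SE 0.27), while the granule proteoglycan gene Srgn was not called. Rises numbered 3 or 3 and falls 1 or 1 without the first or second RIP-OVAhi array. Of 23 named cytokines and chemokines 14 were near background on all arrays. Of the 9 tested 3 rose and 2 fell (median 0.60, 55.6% called). Ifng read 2.79 and 3.65 against 6.80 and 7.73, with 7.81 and 7.43 on the OCS/LPS arrays. Xcl1, a chemokine for cross-presenting dendritic cells, read 5.659 and 6.997 against 9.07 and 9.36, and 5.54 and 5.92 on the OCS/LPS arrays; its call was lost without the second RIP-OVAhi array (adjusted p = 0.0626). Lta rose by 2.21 (SE 0.17), and Ccl5 fell by 0.92 (SE 0.19), a call lost without either RIP-OVAhi array, which left the list no fall.

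Homing genes gave more falls than rises: of 11 tested chemokine and exit receptors 5 fell and 2 rose (median -0.56). That is 63.6% called, against 29.6% of all tested genes. The rises were Cxcr5, which guides cells to follicles (4.34 and 4.78 against 9.29 and 9.20), and Cxcr3, a receptor for interferon-induced chemokines (8.27 and 8.32 against 11.33 and 11.31). Both kept their calls with each array left out in turn. Ccr9, the gut homing receptor, fell from 10.51 and 10.62 to 7.79 and 7.92, and stood at 2.98 and 4.86 on the OCS/LPS arrays; the call (-2.71, SE 0.56, adjusted p = 0.0166) was lost without either array of either group compared (highest adjusted p = 0.112). Gpr183, an oxysterol receptor, fell by 1.44 (SE 0.25), a call lost without the second RIP-OVAhi array. Falls numbered 2 or 1 without the first or second RIP-OVAhi array and 3 without the second naive array. Of 18 integrins and adhesion genes, 7 rose and 2 fell (median 0.51, 50% called). Itgb1, the beta-1 integrin, read 6.78 and 6.37 against 11.54 and 11.80, and Cd44, the hyaluronan receptor of activated cells, 7.67 and 8.23 against 11.86 and 11.84. All 3 tested probe sets of each gene were called higher. Itgb3 rose by 1.48 (SE 0.16), and Thy1 was not called; without the second RIP-OVAhi array 4 rises and no fall remained.

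Survival and death genes were called about as often as all genes or somewhat more often: 40% of the BCL2 family, 26.1% of the death list and 38.5% of the p53 targets, against 29.6% of all tested genes. Of 10 tested BCL2 family genes 2 rose and 2 fell (median 0.22), and of 23 death receptors, caspases and apoptosome genes 6 rose and 0 fell (median 0.26). Bcl2l11, the Bim gene, read 9.66 and 9.17 on the naive arrays and 10.72 and 10.68 on the RIP-OVAhi arrays, above the OCS/LPS values of 9.33 and 9.43. The rise was 1.28 (SE 0.18, adjusted p = 0.0050). It was lost narrowly without either RIP-OVAhi array (highest adjusted p = 0.0533), while all 4 of its tested probe sets were called higher, by 1.28 to 1.80. Bcl2, which Bim binds, read 12.26 and 11.88 against 10.50 and 10.15, and all 5 of its probe sets were called lower, by 0.92 to 2.23. Bbc3, the Puma gene, went from 6.78 and 7.04 to 4.94 and 4.89, near background, and was as low on the OCS/LPS arrays (4.94 and 4.69). Bcl2l1, the Bcl-xL gene, rose by 1.19 (SE 0.22), a call lost without either RIP-OVAhi array. Mcl1 was not called on its main probe set and rose by 0.47 on another of 6. In the death list Birc5, better known as a mitotic gene, rose by 5.99 (SE 0.38), the inflammatory caspase genes Casp4 by 3.26 (SE 0.27) and Casp1 by 1.94 (SE 0.16), and Apaf1, the scaffold of the apoptosome, by 1.67 (SE 0.15); Cycs was not called. Of 13 p53 targets 3 rose and 2 fell (median 0.24). Gadd45b rose by 1.20 (SE 0.11), and the calls of Ddit4 (higher) and Sesn1 (lower) were lost without either RIP-OVAhi array, when the list had 1 rise and 1 fall.

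Heat shock genes held the largest and most variable rises. Hspa1b read 5.69 and 3.77 on the naive arrays and 12.38 and 13.28 on the RIP-OVAhi arrays, with 10.67 and 7.84 on the OCS/LPS arrays and 7.78 on the Rag array. Hspa1a, its near-identical copy, read 2.02 and 2.03 against 9.18 and 10.94, with 7.18 and 3.23 on the OCS/LPS arrays. The naive and RIP-OVAhi arrays did not overlap for either gene, as for 66% of all tested genes. Replicates of a group lay apart for both genes, except the naive arrays for Hspa1a, which were both near background. Near-identical copies can share probe signal, so the values of the 2 genes are not certain to be separate. The differences were 8.10 (SE 1.03, adjusted p = 0.00338) and 8.03 (SE 1.26, adjusted p = 0.0067), and the call of Hspa1a was lost without the second RIP-OVAhi array (adjusted p = 0.0692). Of 20 heat shock and co-chaperone genes 6 rose and 1 fell (median 0.21), or 35% called against 29.6% of all tested genes. Hspa4l rose by 3.28 (SE 0.19) and Hsph1 by 0.78 (SE 0.16; lost without either RIP-OVAhi array), while the constitutive Hspa8 was not called on any of its 4 tested probe sets. Without the first or second RIP-OVAhi array 3 or 2 rises remained. The windows of both inducible genes, chr17:34972107-34972406 for Hspa1a and chr17:34959189-34959488 for Hspa1b on the minus strand, are shown for their likeness, with a match to GAANNTTC, the core of the heat shock element, in capitals.
Hspa1a: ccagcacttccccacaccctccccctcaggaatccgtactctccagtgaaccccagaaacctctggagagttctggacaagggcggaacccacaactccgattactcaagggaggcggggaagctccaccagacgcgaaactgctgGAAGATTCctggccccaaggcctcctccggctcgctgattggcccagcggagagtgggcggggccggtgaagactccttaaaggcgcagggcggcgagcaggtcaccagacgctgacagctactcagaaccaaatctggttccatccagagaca
Hspa1b: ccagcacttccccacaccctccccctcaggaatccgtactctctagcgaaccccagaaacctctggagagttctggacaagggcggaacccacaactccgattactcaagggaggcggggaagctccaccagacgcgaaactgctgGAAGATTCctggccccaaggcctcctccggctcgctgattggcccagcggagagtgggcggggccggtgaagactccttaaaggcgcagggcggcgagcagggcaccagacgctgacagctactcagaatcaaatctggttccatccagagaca
The windows were identical at 296 of 300 positions. Of 20 windows in this list 55.0% held the core, against 9.04% of all windows.

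**Figure D5:**
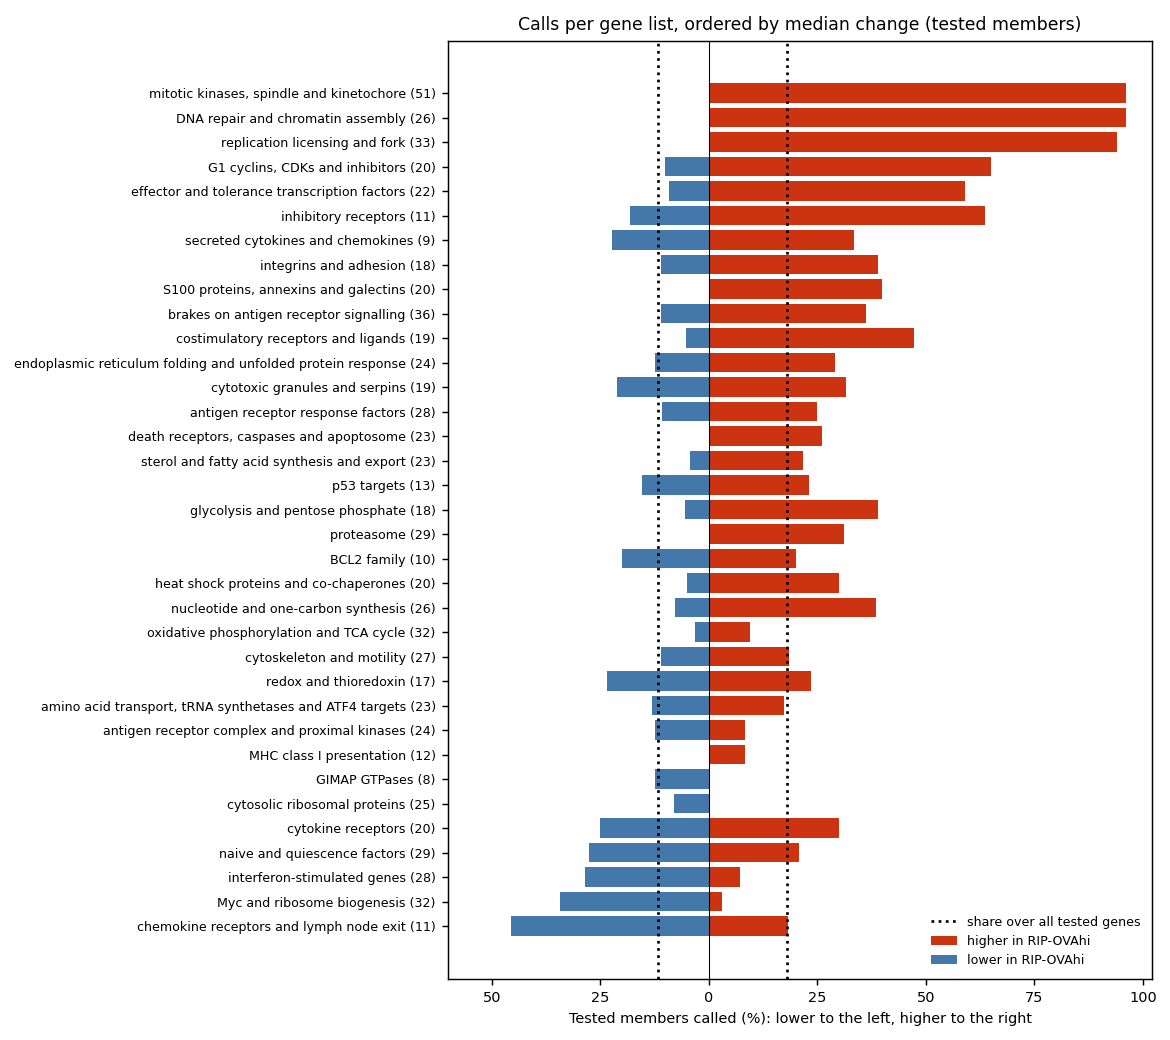
Share of tested members called higher (red, to the right) and lower (blue, to the left) in RIP-OVAhi against naive for 35 gene lists, ordered by median difference, with the number of tested members in brackets. Dotted lines mark the shares over all tested genes, 18.1% higher and 11.6% lower; the 3 division lists reach over 90% higher, and the chemokine receptor, Myc and interferon lists extend furthest to the left.

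Interferon-stimulated genes were lower on balance: 2 rose and 8 fell of 28 (median -0.29), or 35.7% called against 29.6% of all tested genes. Oasl2, an antiviral gene, read 7.27 and 7.25 on the naive arrays and 4.94 and 5.30 on the RIP-OVAhi arrays, and 2.86 and 2.85 on the OCS/LPS arrays. Gbp2, an interferon-gamma-induced GTPase, read 11.51 and 11.81 against 10.05 and 10.24. The RIP-OVAhi arrays lay below the naive arrays for both, by 2.14 (SE 0.15) and 1.51 (SE 0.16), where 66% of all tested genes had no overlap. Oasl2 was 2.26 above OCS/LPS. Ifi27l2a rose by 1.22 (SE 0.27) and Oas2 fell by 1.21 (SE 0.28), calls lost without the first RIP-OVAhi array, and Ifi35 was not called. The falls numbered 3 or 4 without the first or second RIP-OVAhi array. The core of the interferon response element was in 63.6% of 22 windows of this list against 3.99% of all windows, and Oasl2's window held no match. MHC class I presentation had 1 rise (Calr, 0.50, SE 0.13) and 0 falls among 12 genes (median 0.06, 8.33% called). The rise was lost without either RIP-OVAhi array. For all 12 the second naive array was below the first, by a median of 0.44.

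The metabolic lists differed in their share of calls, against 29.6% over all tested genes: 44.4% of glycolysis and pentose phosphate genes, 12.5% of oxidative phosphorylation and TCA cycle genes and 26.1% of sterol and fatty acid genes. Of 18 glycolysis and pentose phosphate genes 7 rose and 1 fell (median 0.23). Hk2, the inducible hexokinase, read 4.61 and 4.72 on the naive arrays and 6.12 and 6.58 on the RIP-OVAhi arrays, and Tpi1 and Pkm rose too, Pkm by 0.95 (SE 0.21). Without the first or second RIP-OVAhi array 2 or 0 of the rises were called. Pdk1, which holds pyruvate back from mitochondria, fell by 1.29 (SE 0.14), and all 4 of its probe sets were called lower. Of 32 genes of oxidative phosphorylation and the TCA cycle, 3 rose and 1 fell (median 0.18), of which Ndufa9, Sdhb and Fh1 rose by 0.53 to 0.64 and Idh2 fell by 0.76. All 4 calls were lost without either RIP-OVAhi array, while 12 rises were called without the second naive array, where 25 of the 32 genes were above the first. Of 23 sterol and fatty acid genes 5 rose and 1 fell (median 0.25). Scd2, a desaturase gene, read 10.28 and 10.31 against 12.46 and 12.24, Pmvk and Cyp51 of the mevalonate and sterol pathways rose by 1.19 (SE 0.15) and 0.86 (SE 0.12), and Abca1, a cholesterol exporter, fell from 7.96 and 8.23 to 6.12 and 5.70. Abca1 was lower still on the OCS/LPS arrays, at 3.49 and 3.44. Acly was not called, and 3 rises remained without either RIP-OVAhi array.

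Growth genes mostly fell or were not called. Of 32 Myc and ribosome biogenesis genes 1 rose and 11 fell (median -0.32), or 37.5% called against 29.6% of all tested genes. Myc, the factor of the growth programme, read 10.01 and 10.48 on the naive arrays and 8.77 and 8.91 on the RIP-OVAhi arrays (-1.41, SE 0.18, adjusted p = 0.00362), near the OCS/LPS values of 8.95 and 9.04. Tsr1 and Wdr43, of ribosomal subunit assembly, fell by 1.07 (SE 0.12) and 0.91 (SE 0.13), and Npm1 was not called. The falls numbered 5 or 3 without the first or second RIP-OVAhi array. Of 25 cytosolic ribosomal protein genes 0 rose and 2 fell (median -0.06, 8% called). These were Rpl12 and Rps25, whose calls were lost without either RIP-OVAhi array. Of 23 genes of amino acid transport, tRNA synthetases and ATF4 targets 4 rose and 3 fell (median 0.15). At 30.4% called, this list was near the share over all tested genes. Psat1, of serine synthesis, read 10.02 and 10.22 against 11.50 and 11.74, while Atf4 fell by 0.74 and Slc3a2 by 0.78. Without a RIP-OVAhi array 1 rise and no fall was called.

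Of the tested genes 31% were called in the proteasome list, 41.7% in the endoplasmic reticulum list and 47.1% in the redox list. The GIMAP list had 12.5% called, and all tested genes 29.6%. Of 29 proteasome genes 9 rose and 0 fell (median 0.23), led by Psmb7 (9.66 and 9.84 against 10.78 and 10.66). None of the 9 was called without either RIP-OVAhi array, 3 were on the 4 compared arrays alone, and 14 genes were called without the second naive array. Of 24 endoplasmic reticulum genes 7 rose and 3 fell (median 0.36). Sdf2l1, a chaperone of the lumen, read 4.11 and 4.34 against 6.91 and 7.17, and Ssr1 rose by 1.01 (SE 0.12), whereas the main chaperone Hspa5 was not called on any of its 3 tested probe sets and the sensor gene Ern1 fell by 0.95 (SE 0.14). Without the first or second RIP-OVAhi array 3 or 2 rises remained and 1 fall; the call of Ern1 was lost without the second (adjusted p = 0.0581). Of 17 redox genes 4 rose and 4 fell (median 0.16); all 4 rises (Glrx, Txn1, Prdx4 and Prdx2) were lost without either RIP-OVAhi array, and 2 or 1 falls were called without the first or second. Txnip, which restrains thioredoxin, fell by 1.23 (SE 0.18), lost without the second (adjusted p = 0.0593). Of 8 GIMAP GTPases 0 rose and 1 fell, Gimap8 (-0.59), lost without either RIP-OVAhi array (median of the list -0.02).

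Of 27 cytoskeleton genes 5 rose and 3 fell (median 0.16), which is 29.6% called, the share over all tested genes; after centring 3 rose and 3 fell. Stmn1, which destabilises microtubules, read 8.96 and 9.70 on the naive arrays and 13.04 and 13.16 on the RIP-OVAhi arrays, and Myo1f rose by 1.22 (SE 0.12). Cfl1 was not called, and 2 rises and no fall remained without either RIP-OVAhi array. Of 20 S100, annexin and galectin genes 8 rose and 0 fell (median 0.45), which is 40% called. Anxa2 read 7.32 and 7.77 against 11.18 and 11.15, and Capg, which caps actin, 5.42 and 6.51 against 9.45 and 8.84. Lgals1 read 11.20 and 12.66 against 13.45 and 13.54, and its call was lost without either RIP-OVAhi array, either OCS/LPS array or with the mean of its probe sets. Without the first or second RIP-OVAhi array 4 or 3 rises remained, and 12 were called without the second naive array. S100a4 and S100a6, named after their values were seen, were not called against naive (5.32 and 5.33 against 5.16 and 5.34 for S100a4, and 6.24 and 6.89 against 6.96 and 6.90 for S100a6) but were at 11.21 and 10.99, and 12.17 and 12.10, on the OCS/LPS arrays, 5.85 and 5.20 above RIP-OVAhi.

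Some immunoglobulin and class II genes were among the falls that ended near background, while the class II genes H2-DMa and Cd74 were not called. Igha, the IgA heavy chain gene, read 7.28 and 8.51 on the naive arrays and 3.40 and 3.40 on the RIP-OVAhi arrays, and Igkv8-30, a kappa variable gene, 7.08 and 7.82 against 2.69 and 3.90. Ighm was not called on its main probe set (12.21 and 12.08 against 11.86 and 11.85), while another Ighm probe set fell by 4.42. Of 3 plasma cell genes tested 0 rose and 2 fell, of 5 class II genes 0 and 3, of 4 myeloid genes 0 and 3, and of 2 erythroid and platelet genes 0 and 1 (Ppbp). Over all tested genes 18.1% were called higher and 11.6% lower, and lists of so few members say little about a share. The calls of Igha, H2-Ab1, H2-Eb1, Ppbp and Tyrobp were lost without either RIP-OVAhi array, and that of Lyz2 without the second. Those of Lyz1, H2-Aa and Jchain were kept under every alternative run. Of 3 B cell genes Cd22 rose (4.04 and 3.59 against 6.53 and 7.03), with 8.21 and 8.55 on the OCS/LPS arrays, and 0 fell. Of 3 NK cell genes Eomes, which CD8 T cells also express, rose by 0.81 (SE 0.14), lost without the second RIP-OVAhi array. Of 2 tested CD4 and regulatory T cell genes both rose, Ctla4 and Ikzf2. The 1 tested gene each of the dendritic cell (Itgax), neutrophil (S100a8) and stromal (Pecam1) lists was not called, and of 8 CD8 identity genes 1 rose, Cd8a.

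Calls were compared between probe sets where a gene had several tested ones. Of 3519 such genes, 427 had every probe set called the same way, 1141 had some called in 1 direction, 1903 had none called, and 48 had calls both ways. Among the 48 were Il6st and Anxa6, for which the counts above use the probe set with the highest mean.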

How the data were processed

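Expression was measured on 7 one-colour Affymetrix mouse arrays of 45101 probe sets, 4 of which are compared here. The deposited log2 values came from GCRMA, a tool named in the submitters' processing notes, with no version named there. That method subtracts background and gives all arrays a common distribution, so a shift of all genes cannot be seen and low values are compressed. Probe sets with 1 gene symbol were kept, and each gene was read from its probe set with the highest mean. Genes with log2 of at least 5 on at least 2 arrays were tested with limma 3.58.1 in R 4.3.3, with a group-means model on all 7 arrays, so the other groups share the estimate of the spread. A gene near background in 1 group passes this filter only through other arrays. The share called in a list with many such genes is therefore partly set by the filter. P-values were adjusted by Benjamini-Hochberg over the tested genes and called under 0.05. The SE is limma's moderated one, with 3 residual degrees of freedom. The number of arrays limits the precision. Replicates are pools of mice by the labels, and nothing says that pools were sorted on separate days.

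The members and gene lists were chosen with earlier results of these data known. Genes were named by a rule: the 12 largest falls and 12 largest rises among called genes measured in both groups without overlap, the 8 called genes highest in either group while near background in the other, the 4 largest calls and 1 uncalled gene of each list, and a fixed set of T cell genes. Genes outside it were named after their values were seen. The pipeline was tested on simulated data with 200 changed genes. It recovered 6.8% of changes of log2 0.5 and 80.6% of changes of log2 1, with 5.92% false among calls. An uncalled gene is therefore not shown to be unchanged. The simulated noise was normal and independent, with 1 spread per gene for all groups, and fewer genes were changed than were called here. In the data the naive arrays stood further apart than other replicates, so the simulated shares need not hold for them. Alternatives were the filter, the choice of probe set, centring, an intensity trend, the replicate block, the 4 compared arrays alone and leaving out each array.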

Additional observations from a re-analysis of the deposited data

How the results depend on the processing

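Against naive, 1481 genes were higher and 948 lower; testing every probe set gave 2278 and 1588. Without a filter on low values 611 genes were lower, and on the 4 compared arrays alone 589. Leaving out 1 array at a time gave 552 to 1981 higher and 255 to 1332 lower genes, fewest without the second RIP-OVAhi array. Against OCS/LPS, 132 genes were higher and 107 lower. No filter gave 50 and 55, and leaving out 1 array 16 to 223 and 16 to 193. The causes were not tested, beyond the fewer or more genes and arrays in each fit. With the replicate number as a block 1400 genes were higher and 899 lower than naive, and 121 higher and 110 lower than OCS/LPS. Same-numbered arrays of different groups correlated in their deviations from the group means by 0.13 to 0.35, and by -0.06 to 0.20 without the X and Y chromosomes, so the block stands only as this alternative. Of 216 named genes tested, 170 were called, 110 of these kept the call under every alternative that tested them, and 0 results reversed. The block ended 2 calls of named genes, no filter 41, and leaving out the first or second RIP-OVAhi array 46 or 58. Signal near background limits the size of the 226 rises and 95 falls with 1 group under log2 5.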
